A study of Mus musculus with 4 samples.

Results

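Integrins are transmembrane receptors made of 1 alpha and 1 beta subunit, and laminins are basement membrane proteins assembled from an alpha, a beta and a gamma chain. Cells hold on to laminin through integrins that contain alpha3, alpha6 or alpha7, while other integrins bind collagens, fibronectin, tenascins or ligands with an RGD tripeptide. In the embryonic jaw, laminins underlie the oral epithelium, vessels and nerves, and integrins anchor epithelium and neural crest mesenchyme to that matrix. The members described here were all measured genes whose current symbol is Itga or Itgb with a number or letter code, or Lama, Lamb or Lamc with a number. They were 35 of the 16637 named genes, 25 integrins and 10 laminins, read by 40 of the 29922 probes. Itgad and Itgb8 are not analysed here, and integrin-binding proteins and Itgbl1 were not members. A gene with several probes was represented by its brightest probe on average.

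The samples were whole mandibles of C57BL/6 mouse embryos at E11.5, the stage at which the mandibular arch is still mostly mesenchyme under an epithelial cover. The 2 control arrays came from wild-type mandibles. The 2 Bmp4 OE arrays came from mandibles in which Bmp4 was conditionally overexpressed for 24 hours under doxycycline. Bmp4 is a ligand of the bone morphogenetic protein (BMP) family. The sources used here do not say whether controls received doxycycline, which promoter or cells drove the transgene, or whether arrays came from separate or pooled embryos. The drug, the genotype and Bmp4 therefore cannot be told apart, and the p-values rest on a spread between arrays that may be technical. The single comparison, Bmp4 OE against control, asks how these genes differ after a raised BMP dose. Bmp4 itself read 11.96 and 12.07 in controls and 15.27 and 15.31 in Bmp4 OE (log2 intensity). The mandible's mesenchymal markers Prrx1 and Pdgfra and its epithelial markers Krt14 and Cdh1 lay above the median of all probes in both groups. In whole tissue, fewer cells of a type and less RNA per cell cannot be told apart.

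The alpha subunit genes Itga9 and Itga11 fell nearly 3-fold, the laminin genes Lama1 and Lamb3 rose, and Lamb1 fell. In limma, with adjusted p under 0.05 as the threshold, 6 of the 35 members were called, which is 17.1% against 16.9% of all named genes. Of the 25 integrins, 2 fell, 1 rose and 22 did not pass. Of the 10 laminins, 1 fell, 2 rose and 7 did not pass. Over all named genes 9.54% fell and 7.39% rose. The median log2 fold change was 0.02 over the integrins, -0.11 over the laminins and 0 over all named genes. Centring arrays on the median level of 14 housekeeping genes shifted all genes by 0.275 and turned the laminin median to 0.1675. The median log2 fold change of those 14 genes was itself only -0.0275, and centring on their differences left the laminin median at -0.09. The median absolute log2 fold change was 0.17 over the 35 members and 0.23 over all named genes. The share of members called is near the background, so the count by itself is no result about the members. Of the 29 members that did not pass, 19 had a log2 fold change within 0.2 of 0, and the half-widths of their 95% intervals ran from 0.252 to 0.62. Groups did not overlap for 11 of the 25 integrins and 6 of the 10 laminins, against 63.3% of all named genes. Without any 1 array (1 residual degree of freedom) limma called 0 members and 0 of all named genes at that threshold, and between 8 and 11 members had an unadjusted p under 0.05. With all 4 arrays that number was 12 members, against 36.4% of all named genes.

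**Figure D1:**
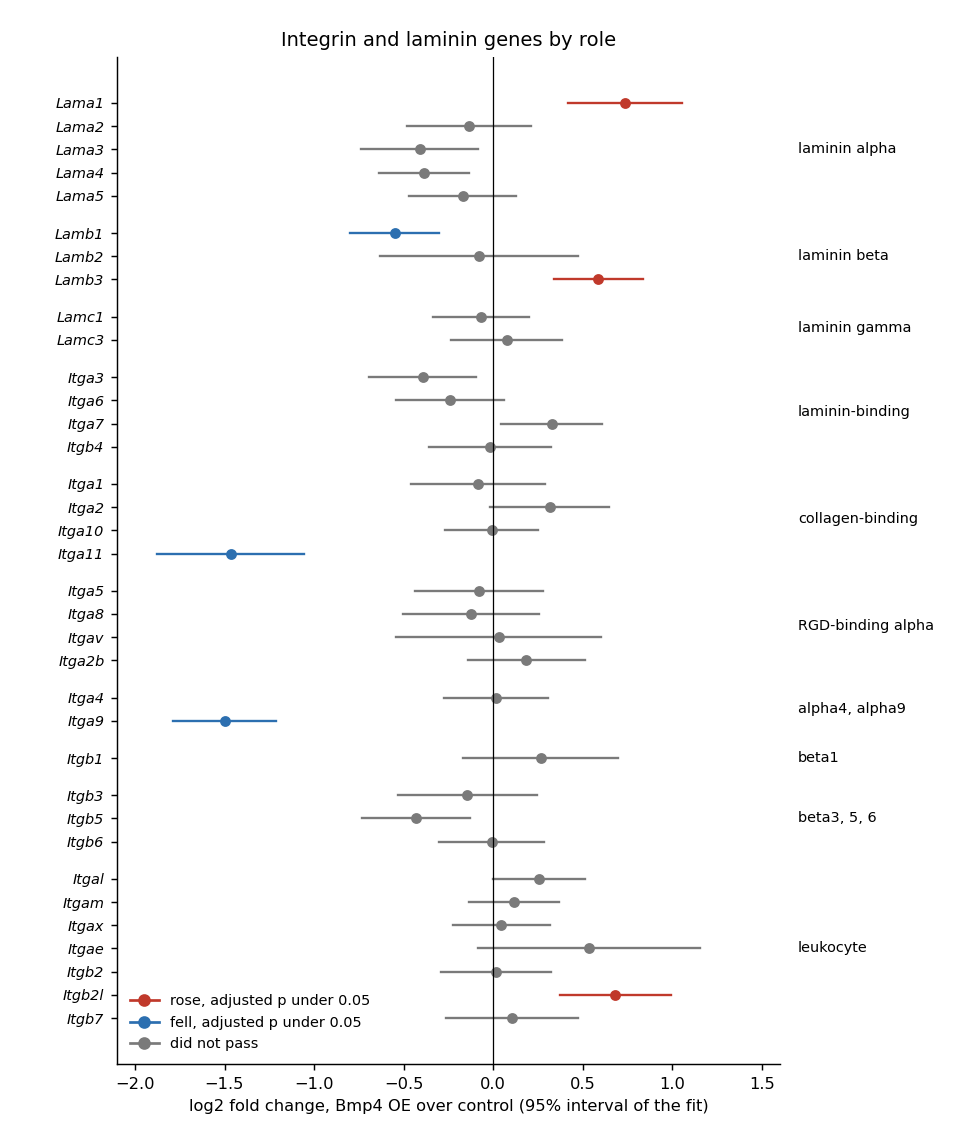
Log2 fold change of each of the 35 member genes (x axis, Bmp4 OE over control, 2 arrays each), ordered by role, with the 95% interval of the limma fit as a line, not adjusted for the number of genes. Itga9 at -1.5 and Itga11 at -1.47 lie far to the left of all other members, which sit between -0.55 for Lamb1 and 0.74 for Lama1.

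The start regions of 3 of the members that fell are shown: the 2 integrins with the largest changes and the 1 laminin that fell. Windows of 300 bases (250 before and 50 after an annotated transcript start) come from RefSeq on GRCm38.p6, where 23 of the 35 members had one, and each is written 5′ to 3′ on the gene's strand. Capitals mark GGCGCC, the core of a GC-rich site bound by Smad1 and Smad5, the transducers of BMP signals, and CAGAC, the core of the Smad-binding element, both read on either strand (GTCTG is the reverse of CAGAC). The Itga11 window is chr9:62677605-62677904 on the plus strand, at the start of the gene. The Lamb1 window is chr12:31265043-31265342 on the plus strand, with its transcript start 147 bases inside the gene's span. The Itga9 window is chr9:118711442-118711741 on the plus strand, and its start lies 104983 bases inside the gene's span, so it belongs to a shorter transcript.
Itga11: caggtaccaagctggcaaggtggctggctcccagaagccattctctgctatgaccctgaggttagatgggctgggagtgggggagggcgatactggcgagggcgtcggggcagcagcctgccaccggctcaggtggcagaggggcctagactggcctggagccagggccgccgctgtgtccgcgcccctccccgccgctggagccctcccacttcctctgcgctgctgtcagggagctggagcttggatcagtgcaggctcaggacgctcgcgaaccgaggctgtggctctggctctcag
Lamb1: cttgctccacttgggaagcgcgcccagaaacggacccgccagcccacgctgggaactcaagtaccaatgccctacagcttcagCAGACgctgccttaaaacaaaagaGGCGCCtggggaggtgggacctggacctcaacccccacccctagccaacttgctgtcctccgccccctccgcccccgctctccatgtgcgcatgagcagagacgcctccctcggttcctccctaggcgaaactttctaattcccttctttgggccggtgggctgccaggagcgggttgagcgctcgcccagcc
Itga9: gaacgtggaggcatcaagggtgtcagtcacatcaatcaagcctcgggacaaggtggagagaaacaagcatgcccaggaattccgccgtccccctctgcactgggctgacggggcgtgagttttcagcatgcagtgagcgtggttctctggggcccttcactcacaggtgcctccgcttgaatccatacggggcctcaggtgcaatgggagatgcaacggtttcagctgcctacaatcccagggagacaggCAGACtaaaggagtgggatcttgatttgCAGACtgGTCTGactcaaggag
The Itga11 window, with 68% G and C, held neither motif. The Lamb1 window held 1 GGCGCC and 1 CAGAC, at positions 108 and 84 of the window, and no 2 matches overlapped. The Itga9 window held 3 CAGAC matches, all after position 250, that is, in the transcribed part. GGCGCC occurred in 3 of the 26 member windows and in 11.9% of all 32851 windows. CAGAC occurred in 18 of the 26 member windows and in 49.6% of all windows. AGATAA, the core of a site for GATA factors, occurred in 1 of the 26 and in 11.2% of all windows. A match is a run of letters, not a bound site.

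The laminin genes that were called went in both directions. Lama1 encodes the alpha1 chain, a founding part of embryonic basement membranes, and lies on chromosome 17 between 67697127 and 67822645 (GRCm38.p6). It read 9.57 and 9.64 in controls and 10.47 and 10.21 in Bmp4 OE (log2 intensity). Both Bmp4 OE arrays were higher than both controls, and the fold was 1.66 (log2 fold change 0.74 ± 0.13, SE, limma adjusted p = 0.0239). Lama1 was the only alpha chain called. Lama4, a chain of vessel and mesenchymal basement membranes, read 10.16 and 10.22 in controls and 9.81 and 9.80 in Bmp4 OE. Its log2 fold change of -0.385 lay just outside the threshold (limma adjusted p = 0.0594). Lama4 passed when probes below the median were left out (adjusted p = 0.0383) and did not pass after cyclic loess (adjusted p = 0.0632). Centred on the median level of housekeeping genes, its log2 fold change was -0.11 (adjusted p = 0.766). Centred on the differences of those genes, a setting added after seeing the data, it was -0.3675 (adjusted p = 0.0656). Lama3, the epithelial alpha3 chain, had a log2 fold change of -0.41 (95% interval -0.74 to -0.08) without overlap between groups, and did not pass (adjusted p = 0.0920). Lama2, the chain of muscle and nerve basement membranes, and Lama5, a widespread epithelial chain, did not pass, with log2 fold changes of -0.135 and -0.17.

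Of the beta chains, Lamb1 and Lamb3 moved in opposite directions. Lamb1, the beta chain of most embryonic laminins, lies on chromosome 12 between 31265146 and 31329644. It read 11.19 and 11.20 in controls and 10.63 and 10.66 in Bmp4 OE, so the arrays of each group lay within 0.03 of each other and the groups were apart. The fall was 1.46-fold (log2 fold change -0.55 ± 0.10, SE, limma adjusted p = 0.0263). The call was lost when arrays were centred on housekeeping genes by the median of their levels (log2 fold change -0.275, adjusted p = 0.443), and kept when they were centred by the median of those genes' own differences, a setting added after seeing the data (log2 fold change -0.53, adjusted p = 0.0226). Lamb3, the beta chain of the laminin that anchors stratified epithelia, lies on chromosome 1 between 193294353 and 193343878. It read 8.13 and 8.15 in controls and 8.72 and 8.73 in Bmp4 OE, again with arrays of 1 group nearly equal. The rise was 1.5-fold (log2 fold change 0.585 ± 0.10, SE, limma adjusted p = 0.0229). Lama3, which pairs with Lamb3 in that laminin, read 8.27 and 8.0 in controls and 7.68 and 7.77 in Bmp4 OE. These 2 chains of 1 trimer had values on opposite sides of 0, and a test of their difference was not run. Lamb2, the beta chain of mature muscle and nerve basement membranes, was not measured precisely, with controls at 8.91 and 8.25 (log2 fold change -0.08, 95% interval -0.63 to 0.47).

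Neither measured gamma chain passed. Lamc1, the gamma chain of most laminins, read 10.24 and 10.19 in controls and 10.21 and 10.08 in Bmp4 OE. Its log2 fold change of -0.07 had a 95% interval from -0.34 to 0.20. Lamc3 had a log2 fold change of 0.075. Among the 3 chains of laminin-111, the main laminin of early embryos, Lama1 was therefore higher, Lamb1 lower and Lamc1 without a detectable difference.

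The laminin-binding integrins did not pass as single genes. Itga3 read 9.45 and 9.46 in controls and 9.17 and 8.95 in Bmp4 OE, with no overlap (log2 fold change -0.395, limma adjusted p = 0.0814). Itga6, the subunit shared by basal epithelial cells and vessels, was lower on both of its probes without overlap, by -0.24 and -0.44 on the log2 scale, with adjusted p-values of 0.232 and 0.0576. Itgb4, which joins alpha6 in epithelial hemidesmosomes, had a log2 fold change of -0.02 (95% interval -0.36 to 0.32). Itga7, the laminin receptor of muscle, read 7.94 and 8.11 in controls and 8.38 and 8.32 in Bmp4 OE, without overlap (log2 fold change 0.325, adjusted p = 0.111).

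Markers of epithelium, muscle and vessels were read beside these genes. Of 15 measured epithelium markers, 5 rose, 2 fell and 8 did not pass, led by Krt8, Krt18 and Cdh1 with log2 fold changes of 1.23, 1.20 and 0.92, while Krt14 and Krt5 fell, with -0.79 and -0.46. Their summed linear intensity was 49703 and 51321 in controls and 45429 and 48021 in Bmp4 OE. Krt14 dominates that sum, and the other 14 markers summed to 22528 and 21789 in controls and 29493 and 31176 in Bmp4 OE. Of 14 skeletal muscle markers, 4 rose, 0 fell and 10 did not pass. Their sum was 11123 and 10937 in controls and 18858 and 18893 in Bmp4 OE. Without Tnnt1, the brightest, it was 8040 and 8584 in controls and 11969 and 12146 in Bmp4 OE. The muscle regulators Myod1 and Myog did not pass, with log2 fold changes of 0.125 and 0.01, and Myf5 read below the lower quartile of all probes in controls. Of 16 endothelium markers, 2 rose (Ramp2 and Cldn5), 0 fell and 14 did not pass, among them Pecam1 and Cdh5, with log2 fold changes of 0.39 and -0.06. Their sum was 17403 and 17579 in controls and 25753 and 25799 in Bmp4 OE, and 14189 and 14497 against 16664 and 16896 without Ramp2, the brightest. Of 11 pericyte and smooth muscle markers, 6 rose, 1 fell and 4 did not pass. Their sum was 10263 and 10390 in controls and 13941 and 14035 in Bmp4 OE. Without Acta2, the brightest, it was 7445 and 7631 in controls and 8536 and 8921 in Bmp4 OE. Rgs5 and Acta2 rose 7.73-fold and 1.89-fold, while Pdgfrb fell (log2 fold change -0.515) and Cspg4 did not pass (-0.055). In controls Rgs5 read 6.41 and 6.53, below the lower quartile of all probes. The share called was 46.7% for epithelium, 28.6% for muscle, 12.5% for endothelium and 63.6% for pericyte markers, against 16.9% of all named genes. No marker reads 0 on this intensity scale. The part of these cell types in the values of Lamb3, Lama3, Lama4, Itga6 or Itga7 was not tested.

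The largest changes of the list were the falls of Itga9 and Itga11, alpha subunits that both pair with beta1. Itga9 encodes alpha9, a receptor for tenascin-C, osteopontin and VCAM-1, and lies on chromosome 9 between 118606709 and 118901003. It read 11.08 and 11.03 in controls and 9.65 and 9.46 in Bmp4 OE. The fall was 2.83-fold (log2 fold change -1.5 ± 0.12, SE, limma adjusted p = 0.00451). A second Itga9 probe read 9.21 and 9.27 in controls and 8.18 and 7.92 in Bmp4 OE, and it fell too (log2 fold change -1.19 ± 0.13, SE, adjusted p = 0.00888). Itga9 was the only member of the 5 genes with 2 probes for which both passed.

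Itga11 encodes alpha11, a receptor for fibrillar collagen found on mesenchymal cells, and lies on chromosome 9 between 62677855 and 62783979. It read 10.98 and 11.37 in controls and 9.61 and 9.81 in Bmp4 OE. Both Bmp4 OE arrays lay more than a log2 unit below both controls, a 2.76-fold fall (log2 fold change -1.47 ± 0.16, SE, limma adjusted p = 0.00951). A second, dimmer Itga11 probe read 7.95 and 7.79 in controls and 7.54 and 7.47 in Bmp4 OE. That probe moved in the same direction without overlap and did not pass (log2 fold change -0.365 ± 0.11, SE, adjusted p = 0.0849). Itga9 and Itga11 were also the only members past the series' own threshold (at least 2-fold, unadjusted p under 0.05), which 3.29% of all named genes passed.

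**Figure D2:**
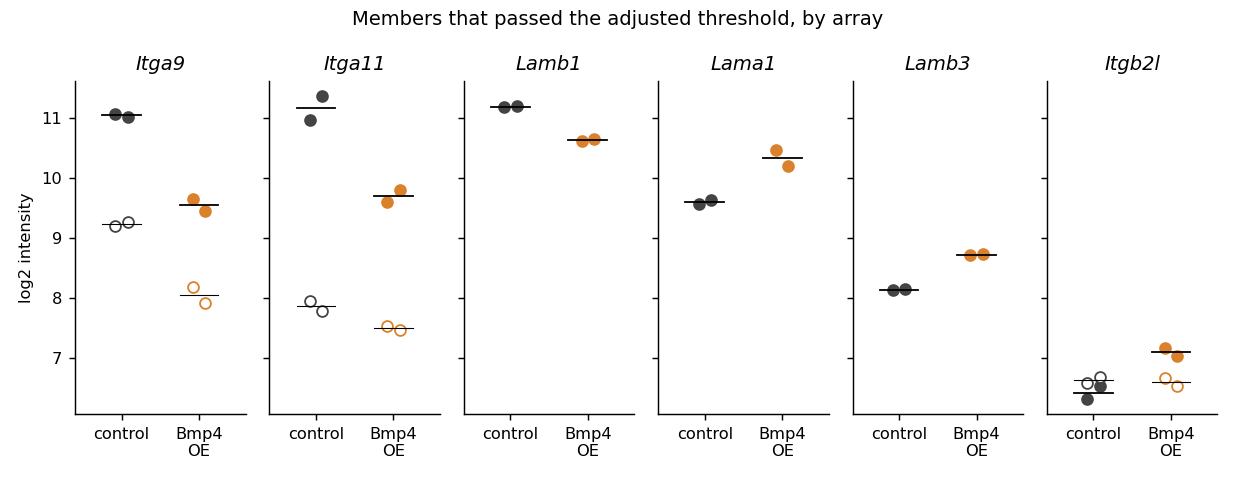
Log2 intensity (y axis) of the 6 members that passed the adjusted threshold, on each of the 2 control and 2 Bmp4 OE arrays, with horizontal lines at group means. Filled points are the brightest probe of a gene and open points its second probe. Both probes of Itga9 are lower in Bmp4 OE, the second Itga11 probe falls less than the first, and the second Itgb2l probe does not rise.

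The other collagen receptors did not pass. Itga1 read 7.25 and 7.44 in controls and 7.10 and 7.42 in Bmp4 OE, with overlap and a log2 fold change of -0.085 (95% interval -0.46 to 0.29). Itga2, the collagen receptor of epithelium and platelets, was higher without overlap, by 0.315 on the log2 scale, and missed the threshold (limma adjusted p = 0.168). Itga10, a collagen receptor of cartilage, lay below the lower quartile of all probes (6.79) in both groups, where changes may be compressed. Itga4, the closest relative of Itga9, also lay there.

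Markers of mesenchyme, where alpha11 is chiefly found, went both ways. Of 13 measured, 2 rose, 3 fell and 8 did not pass, which is 38.5% called against 16.9% of all named genes. Twist2 and Twist1 fell, with log2 fold changes of -1.59 and -1.19, and Prrx2 rose, with 1.17. Prrx1 and Pdgfra did not pass, with log2 fold changes of -0.17 and 0.03. The summed linear intensity of the list was 196259 and 198639 in controls and 200061 and 188217 in Bmp4 OE, which overlap. Vim was saturated at 16 on all 4 arrays and Col3a1 read near it. Without these 2 genes the sum was 88667 and 90164 in controls and 92178 and 86070 in Bmp4 OE, which also overlap. The part of mesenchymal cell number in the Itga9 and Itga11 values was not tested.

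The RGD-binding receptors, Itgb1 and the partners of alphav were not called. Itgb1, the beta subunit shared by most matrix receptors, including alpha9 and alpha11, read 14.26 and 13.80 in controls and 14.36 and 14.23 in Bmp4 OE. The groups overlapped, with a log2 fold change of 0.265 (95% interval -0.17 to 0.70). The fibronectin receptor subunit Itga5 had a log2 fold change of -0.08 (95% interval -0.44 to 0.28), and Itga8, a nephronectin receptor subunit of mesenchyme, had -0.125. Itgav was spread on the Bmp4 OE arrays, at 8.67 and 7.99, against 8.37 and 8.23 in controls, so its log2 fold change of 0.03 carried an interval from -0.54 to 0.60. Itgb5, a partner of alphav that binds vitronectin, was lower on both probes without overlap. Its brighter probe read 12.66 and 12.65 in controls and 12.11 and 12.34 in Bmp4 OE (log2 fold change -0.43, limma adjusted p = 0.0695). That probe passed when the variance followed intensity (adjusted p = 0.0362) and did not pass after cyclic loess (adjusted p = 0.0696). Centred on the median level of housekeeping genes, its log2 fold change was -0.155 (adjusted p = 0.669). Centred on the differences of those genes, a setting added after seeing the data, it was -0.4125 (adjusted p = 0.0630). The second Itgb5 probe had a log2 fold change of -0.33. Itgb3 and Itgb6, which also pair with alphav, had log2 fold changes of -0.145 and -0.01. Itga2b, the platelet subunit alphaIIb, had 0.185, beside 11 platelet markers of which 1 rose, 1 fell and 9 did not pass. Of those markers 18.2% were called, against 16.9% of all named genes.

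All 7 measured leukocyte integrins had log2 fold changes above 0 on the deposited scale, as had 8307 of all 16637 named genes. The median of the 7 was 0.115, and 1 was called, which is 14.3% against 16.9% of all named genes. Itgb2l, a gene related to the leukocyte beta2 subunit, lies on chromosome 16 between 96422288 and 96443664. Its brightest probe read 6.31 and 6.53 in controls, below the lower quartile of all probes, and 7.16 and 7.04 in Bmp4 OE (log2 fold change 0.68 ± 0.12, SE, limma adjusted p = 0.0266). In controls the second Itgb2l probe was the brighter, so the choice of the first as brightest rests on its Bmp4 OE values, that is, on the change itself. The second probe read 6.58 and 6.68 in controls and 6.66 and 6.53 in Bmp4 OE, a log2 fold change of -0.035 (adjusted p = 0.861). The mean of both probes did not pass (log2 fold change 0.32, adjusted p = 0.0926), so the rise rests on 1 dim probe. Itgae, a subunit of intraepithelial lymphocytes, had a log2 fold change of 0.535, with Bmp4 OE arrays at 8.06 and 8.77, and did not pass (adjusted p = 0.202). Itgal, Itgam and Itgb7 did not pass, at log2 fold changes of 0.255, 0.115 and 0.105. Itgax and Itgb2, the common leukocyte beta subunit, were below the lower quartile on all 4 arrays. Of 14 measured myeloid markers, 5 rose, 1 fell and 8 did not pass, which is 42.9% called against 16.9% of all named genes. C1qc, C1qb and C1qa rose, with log2 fold changes of 1.15, 1.25 and 0.68, and Cd14 fell, with -0.525. The defining markers Csf1r, Cd68 and Aif1 did not pass, with log2 fold changes of 0.455, 0.235 and 0.39. The summed linear intensity of the 14 markers was 4759 and 4744 in controls and 6794 and 6716 in Bmp4 OE. The pan-leukocyte marker Ptprc, at a log2 fold change of 0.10, read below the lower quartile. The part of myeloid cells in the integrin values was not tested.

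Among the wider set of adhesion genes, Smoc1 and Smoc2 fell most, and several ligands of integrins changed in either direction. Of 20 measured basement membrane partners of laminin, 3 rose, 5 fell and 12 did not pass, with a median log2 fold change of -0.205. That is 40% called, against 16.9% of all named genes and 19.8% of those at or above the lower quartile of all probes. This list and those that follow were chosen with earlier results of these data known, so their shares by themselves are no result. Smoc2 and Smoc1, secreted calcium-binding proteins of basement membranes, fell 7.26-fold and 7.54-fold, and the netrin gene Ntn1, the fibulin gene Fbln1 and the collagen IV gene Col4a1 fell 1.71-fold, 1.55-fold and 1.45-fold. Sparc, Agrn and Frem2 rose 1.67-fold, 1.48-fold and 1.43-fold. Agrn encodes agrin, a proteoglycan that binds laminin directly. Nid1, which links laminin to collagen IV, and Hspg2, the proteoglycan perlecan, did not pass, with log2 fold changes of -0.24 and 0.05. Of 11 other laminin receptors, Cd151, a tetraspanin partner of laminin-binding integrins, rose 1.74-fold and Sdc1, a cell surface proteoglycan, fell 2.07-fold, while Dag1, the receptor dystroglycan, did not pass, with a log2 fold change of 0.26.

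Of 26 integrin ligands other than laminin, 4 rose, 4 fell and 18 did not pass, a share called of 30.8% against 16.9% of all named genes, with a median log2 fold change of -0.05. Spp1, which encodes osteopontin, read 8.56 and 8.52 in controls and 6.72 and 6.80 in Bmp4 OE, a 3.43-fold fall. Tnc, which encodes tenascin-C, read 11.16 and 11.04 in controls and 9.47 and 9.71 in Bmp4 OE, a 2.85-fold fall. Both are ligands of alpha9, whose gene fell 2.83-fold on the same arrays. Fn1 rose 1.57-fold and Tgfbi 2.96-fold, and both encode matrix proteins that integrins bind. Vcam1, another alpha9 ligand, did not pass, with a log2 fold change of -0.105.

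Of 37 integrin adaptors and focal adhesion proteins, 2 rose, 4 fell and 31 did not pass, a share of 16.2%, near that of all named genes. Tgfb1i1, a paxillin relative also called Hic-5, rose 2.14-fold, and Tns1 and Tns2, tensins that tie integrin tails to actin, fell 2.02-fold and 1.75-fold. Sharpin, an inhibitor of integrin activation, rose 1.44-fold. Csk, a kinase that restrains Src, and Tln2, a talin, fell 1.54-fold and 1.45-fold. The adaptors Tln1, Ilk, Fermt2 and Ptk2 did not pass, with log2 fold changes of -0.03, 0.12, -0.20 and -0.16.

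**Figure D3:**
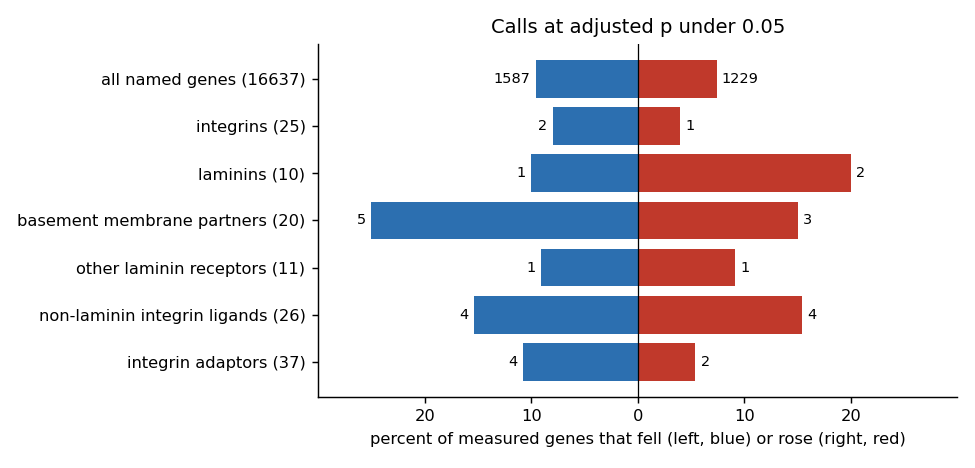
Percent of measured genes in each list (number measured in brackets) that fell (left) or rose (right) past the adjusted threshold of 0.05, with the count of genes at each bar's end. The integrins and the adaptors lie close to or below the bars of all named genes, and the basement membrane partners reach 5 falls and 3 rises of 20.

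**Figure D4:**
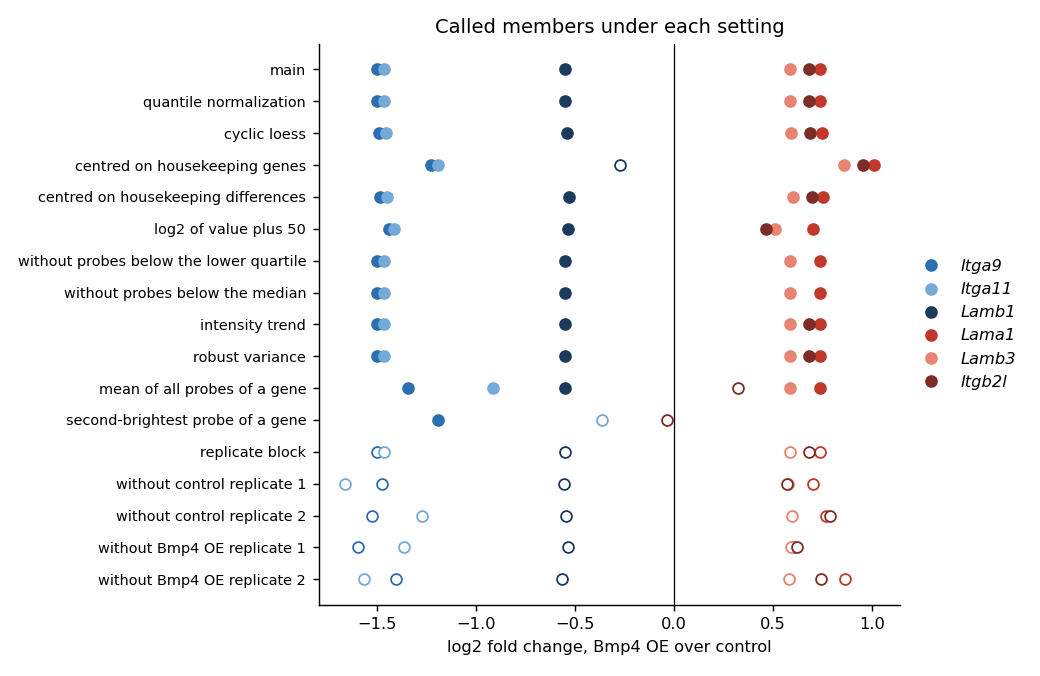
Log2 fold change (x axis, Bmp4 OE over control) of the 6 called members under each way of processing (y axis), filled where the adjusted p was under 0.05. Itga9 and Itga11 stay at or below -0.915 except for the second Itga11 probe at -0.365, and every point of the settings that leave out an array is open. The points under quantile normalisation repeat the main ones, because the deposited values were already quantile-normalised.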

How the data were processed

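Total RNA of E11.5 mandibles was amplified, coupled to Cy5 and hybridised to 1 array per sample, per the labels' protocols. The deposited table holds log2 intensity values, read as log2 from their maximum of 16. The sorted values of the 4 columns differ by 0, so the authors' log2 values were quantile-normalised, which hides any shift of most genes. The sources used here do not name the scanner, background correction or software. Depth has no meaning for arrays, and the 2 arrays per group limit the precision.

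Probe names came from the platform annotation, with synonyms updated through the GRCm38.p6 RefSeq gene table (21020 of 29922 probes had 1 symbol). All probes were fitted with limma 3.58.1 in R 4.3.3 (lmFit, eBayes, two-sided, 2 residual and 3.59 prior degrees of freedom), with Benjamini-Hochberg adjustment over all probes, and the fit was tested on simulated data. An exact permutation test of 2 against 2 arrays cannot go below 0.333. The members, gene lists and motifs were chosen with earlier results of these data known. Named genes were all members, up to 4 called genes with the smallest p in each pathway list, and some of the called and defining genes of the marker lists. Other called or defining markers enter only the counts and sums. Vim and Col3a1 were named for their readings at or near the maximum. Ntn1, Fbln1, Col4a1, Frem2, Csk, Tln2, Nid1, Hspg2, Dag1, Fn1, Vcam1, Tln1, Ilk, Fermt2 and Ptk2 were named after their values were seen. Alternatives were other normalisations, a pseudocount of 50, filters on dim probes, other variance models, other probe choices, a replicate block and leaving out each array. Quantile normalisation was among them and could not differ from the main setting, because the columns already held the same sorted values.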

Additional observations from a re-analysis of the deposited data

How the results depend on the processing

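Outside the settings that remove an array or add a block, integrin calls ranged from 2 to 4 and laminin calls from 2 to 4, and calls over all named genes from 2816 to 3456 at the adjusted threshold in limma. At the 2-fold threshold with an unadjusted p of 0.05, 2 integrins, 0 laminins and 548 of all named genes passed. Leaving out each array in turn gave 0 integrins, 0 laminins and 0 of all named genes (3781 to 4776 genes at an unadjusted p under 0.05), and median log2 fold changes from 0.01 to 0.09 for integrins and from -0.25 to -0.0175 for laminins. With the replicate block, limma called 0 integrins, 0 laminins and 0 of all named genes, with 10 members and 5378 genes at an unadjusted p under 0.05. Deviations from the group means of control 1 and Bmp4 OE 1 correlated across probes with r = -0.0711. With 2 arrays per group the other pair mirrors this value, so it cannot decide whether the numbers pair the arrays. Centring on the median level of 14 housekeeping genes shifted all genes by 0.275, moved the medians to 0.29 for integrins and 0.1675 for laminins, and raised the share of rises among all calls from 43.6% to 87.4%. The median log2 fold change of those genes was -0.0275. Centring on their differences, added after seeing the data, shifted all genes by 0.0175, with 48% rises among calls and medians of 0.03 and -0.09. With the first centring, members on the positive side went from 13 to 21 integrins and from 3 to 7 laminins. The second Itgb2l probe reversed the sign, at -0.035. The cause of these differences was not tested. Changes may be understated where a probe reads under 6.79, the lower quartile, and this was not tested. By their mean over all arrays, 5 of the 25 integrins and 0 of the 10 laminins lay there.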
